A study of Drosophila melanogaster with 6 samples.

Results

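The larval serum proteins and fat body proteins of Drosophila were read as a set of 5 listed genes: Lsp1beta, Lsp1gamma, Lsp2, Fbp1 and Fbp2. The genes were chosen by name, and a gene counted as measured where the platform annotation gave it a probe set with 1 gene symbol. This left 3 of the 5, Lsp2, Fbp1 and Fbp2, with 1 probe set each, among 10826 measured genes. Lsp1beta and Lsp1gamma had no probe set under their symbol or gene ID and were not analysed here, nor was Lsp1alpha, the third subunit gene of the same protein.

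RNA came from larvae of the third instar on 6 single-colour Affymetrix arrays, 3 of mle/mle homozygous larvae and 3 of the wild type strain cancon S (spelled as in the labels). The gene mle (maleless) encodes an RNA helicase of the complex that raises transcription of the male X chromosome, and the labels do not name the allele. The mle/mle larvae were male and were sorted away from heterozygous siblings that carried a Tb-marked translocation. For the wild type larvae no sex is stated, so genotype, strain and sex cannot be told apart here. The arrays are labelled as biological replicates without the number of larvae in each, so p-values measure the spread between these RNA samples, which may be partly technical.

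Larval serum proteins are hexamerins, storage proteins of the hemocyanin superfamily. The fat body, the larval organ that combines roles of liver and adipose tissue, makes them in large amounts and secretes them into the hemolymph. Near the end of larval life, under the steroid hormone ecdysone, the fat body takes them back up and keeps them as amino acid stores for metamorphosis. LSP1 is built from the products of Lsp1alpha, Lsp1beta and Lsp1gamma, and LSP2 from that of Lsp2. Fbp1 encodes a receptor for LSP1 and is itself a hexamerin relative switched on by ecdysone. Fbp2 encodes a fat body protein related to alcohol dehydrogenase. The RefSeq table places Lsp1alpha on X, Lsp1beta and Fbp2 on the arm 2L, and Lsp1gamma, Lsp2 and Fbp1 on 3L, so no measured member is X-linked.

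Values are log2 RMA signals per probe set, on which 1 unit is a doubling of signal. The array medians lay between 6.89 and 6.92. Over all 13966 tested probe sets, limma called 8 at an adjusted p under 0.05, and the probe set of mle did not pass (5.34 ± 0.08 in mle/mle and 5.45 ± 0.10 in wild type, SD, n = 3 each). Mutant mle RNA that is still made could give a signal near that of wild type, so the mle values do not check the genotype. The count depended most on mle/mle replicate 2: limma called 145 probe sets without that array, 7 without wild type replicate 2 and 453 without both. Values without both are given below beside the results that they move.

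The 3 genes were among the brightest on the arrays, at place 14 for Lsp2, 81 for Fbp1 and 159 for Fbp2 of 13966 probe sets by mean signal. These places describe the probe sets, since signals of different probe sets do not measure transcript numbers on one scale. All 3 means were higher in mle/mle, by 0.07 to 0.27 log2 units, and none of the 3 genes passed the test (adjusted p = 0.9997 for each by limma). Over all tested probe sets 0.0573% were called and 53.7% had a positive change. Among the 159 probe sets at least as bright as Fbp2, 64.8% had a positive change. In whole larvae, a different number of fat body cells and a different RNA level per fat body cell cannot be told apart.

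Lsp2, the gene of the storage hexamerin LSP2, had log2 signals of 13.92, 13.93 and 13.97 in mle/mle replicates 1, 2 and 3, against 13.87, 13.81 and 13.91 in wild type replicates 1, 2 and 3. The mle/mle arrays all lay above the wild type arrays, although the lowest mle/mle array (13.92) and the highest wild type array (13.91) nearly met. Such separation of the groups was seen in 8.36% of all probe sets, and in 5.42% with mle/mle on the higher side. Lsp2 averaged 13.94 ± 0.03 in mle/mle and 13.87 ± 0.05 in wild type (SD, n = 3 each), a difference of 0.07 (SE 0.07, 95% interval -0.08 to 0.23). On the linear scale that interval runs from 0.943 to 1.17 times the wild type signal. The difference was 0.14 after quantile normalization (adjusted p = 0.9994 by limma) and 0.05 without wild type replicate 2 (adjusted p = 0.935 by limma). Within the mle/mle group the SD of Lsp2 was larger than that of only 7.44% of probe sets, so its signal was steady as well as high. Bright probe sets were steadier in general. The median mle/mle SD was 0.066 for the 159 probe sets at least as bright as Fbp2, against 0.093 for all. RMA tables hold no saturation call, and a compressed change or spread at this brightness was not tested.

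Fbp1, the gene of the LSP1 receptor, had log2 signals of 12.92, 13.18 and 13.05 in mle/mle replicates 1, 2 and 3, against 12.77, 12.58 and 12.97 in wild type replicates 1, 2 and 3. The groups overlapped, since mle/mle replicate 1 lay below wild type replicate 3. Fbp1 averaged 13.05 ± 0.13 in mle/mle and 12.78 ± 0.20 in wild type (SD, n = 3 each). The difference of 0.27 was the largest of the 3 genes (SE 0.11, 95% interval 0.01 to 0.54), or 1.21 times the wild type signal. Its unadjusted p was 0.044 by limma, a level that 4.32% of all probe sets reached. Among the 159 probe sets at least as bright as Fbp2, 24 reached it. A positive change was seen in 103 of them (64.8%), against 53.7% of all probe sets.

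The difference of Fbp1 rested in large part on replicate 2. Fbp1 was highest of all 6 arrays in mle/mle replicate 2 and lowest in wild type replicate 2, a pairing of extremes seen in 5.68% of genes. The same-numbered arrays differed by 0.60 in replicate 2, by 0.15 in replicate 1 and by 0.07 in replicate 3. Without replicate 2 of both groups the difference was 0.11 (SE 0.09, adjusted p = 0.725 by limma). Lsp2 differed by 0.05, 0.11 and 0.06 in replicates 1, 2 and 3. A higher value in mle/mle in every such pair, as for Fbp1 and Lsp2, was shared by 15.6% of all probe sets.

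Fbp2, the gene of the dehydrogenase relative, had log2 signals of 12.41, 11.54 and 12.60 in mle/mle replicates 1, 2 and 3, against 12.01, 11.86 and 12.23 in wild type replicates 1, 2 and 3. One mle/mle array held the lowest value of all 6 and the other 2 held the highest, so the groups overlapped completely. Fbp2 averaged 12.18 ± 0.56 in mle/mle and 12.03 ± 0.19 in wild type (SD, n = 3 each), a difference of 0.15 (SE 0.25, 95% interval -0.42 to 0.72). In mle/mle replicate 2 the signal lay 0.86 below the next mle/mle array. The SD of Fbp2 among the mle/mle arrays exceeded that of 98.9% of probe sets.

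Without replicate 2 of both groups Fbp2 was 0.38 higher in mle/mle (SE 0.10, adjusted p = 0.0991 by limma), and without mle/mle replicate 2 alone it was 0.47 higher (adjusted p = 0.214 by limma). Neither passed the threshold, while 3.24% and 1.04% of all probe sets did in those fits. Without mle/mle replicate 3 the difference turned to -0.057. The direction of Fbp2 therefore depended on which array was left out.

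**Figure D1:**
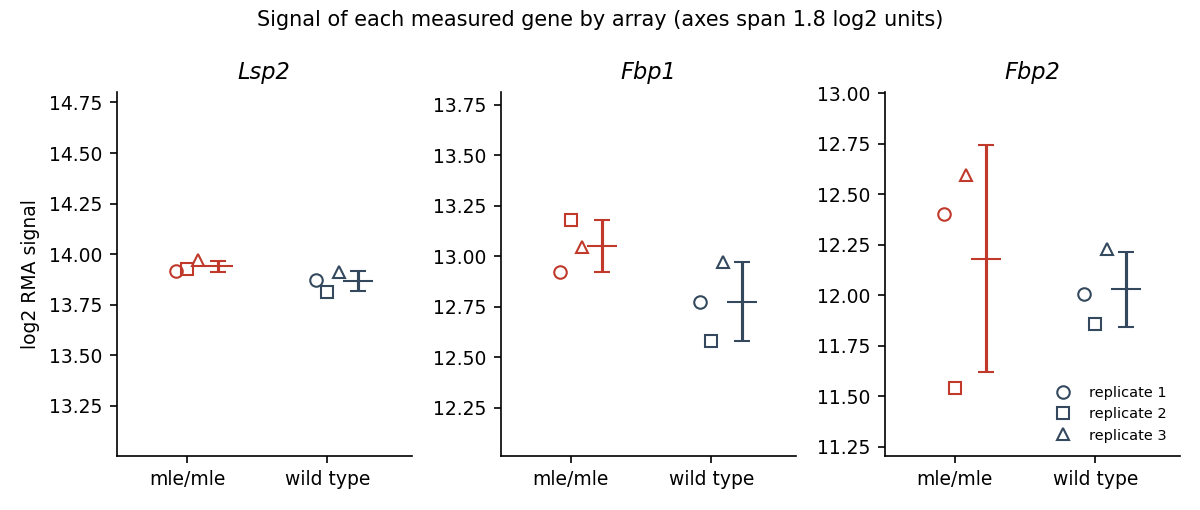
Log2 RMA signal of Lsp2, Fbp1 and Fbp2 in each array, mle/mle in red and wild type in blue-grey, with a symbol per replicate number and the group mean ± SD (n = 3) beside the points. Lsp2 is tight in both groups, Fbp1 overlaps between mle/mle replicate 1 and wild type replicate 3, and Fbp2 in mle/mle replicate 2 (11.54) lies below every other array.

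The 2 fat body protein genes thus moved in opposite directions in the same array. Relative to each gene's mean over the 6 arrays, mle/mle replicate 2 was at 0.27 for Fbp1 and at -0.56 for Fbp2, while Lsp2 was at 0.02. In wild type replicate 2 all 3 genes lay below their means, by -0.33 for Fbp1, -0.25 for Fbp2 and -0.09 for Lsp2. The root mean square difference between the centred profiles was 0.389 log2 units between Fbp1 and Fbp2, 0.328 between Lsp2 and Fbp2 and 0.150 between Lsp2 and Fbp1. Of the 6888 other genes above the dimmest 40% of probe sets, 6666 had a profile nearer to that of Fbp1 than Fbp2 did. This was not particular to Fbp1, since 6675 lay nearer to Lsp2 than Fbp2 did. The measure grows with the spread of a profile, which was wide for Fbp2. Seen from Fbp2, 4560 of the 6888 lay nearer than Fbp1.

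The genes nearest to each profile were found by the same measure over the 6 arrays. For Fbp1 they were CG3397 (root mean square difference 0.029), the glutamine synthetase gene Gs1 (0.038) and CG15209 (0.040), where the median over all 6888 genes was 0.208. All 3 were high in mle/mle replicate 2 (0.25, 0.23 and 0.19 above their means) and low in wild type replicate 2 (-0.38, -0.34 and -0.29). For Fbp2 they were the cuticle protein gene Cpr47Ec (0.054), CG32436 (0.061) and CG15255 (0.089), against a median of 0.365. These 3 shared the low value of mle/mle replicate 2, at -0.65, -0.50 and -0.73. All were picked for nearness over these same 6 arrays, so their likeness to Fbp1 or Fbp2 follows from the choice. For Lsp2, whose profile was nearly flat, Polr1H, AIMP1 and CG9953 each lay at 0.012, against a median of 0.114, and such small distances are common among steady genes. None of these 9 genes passed the test (adjusted p = 0.9997 at most by limma).

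**Figure D2:**
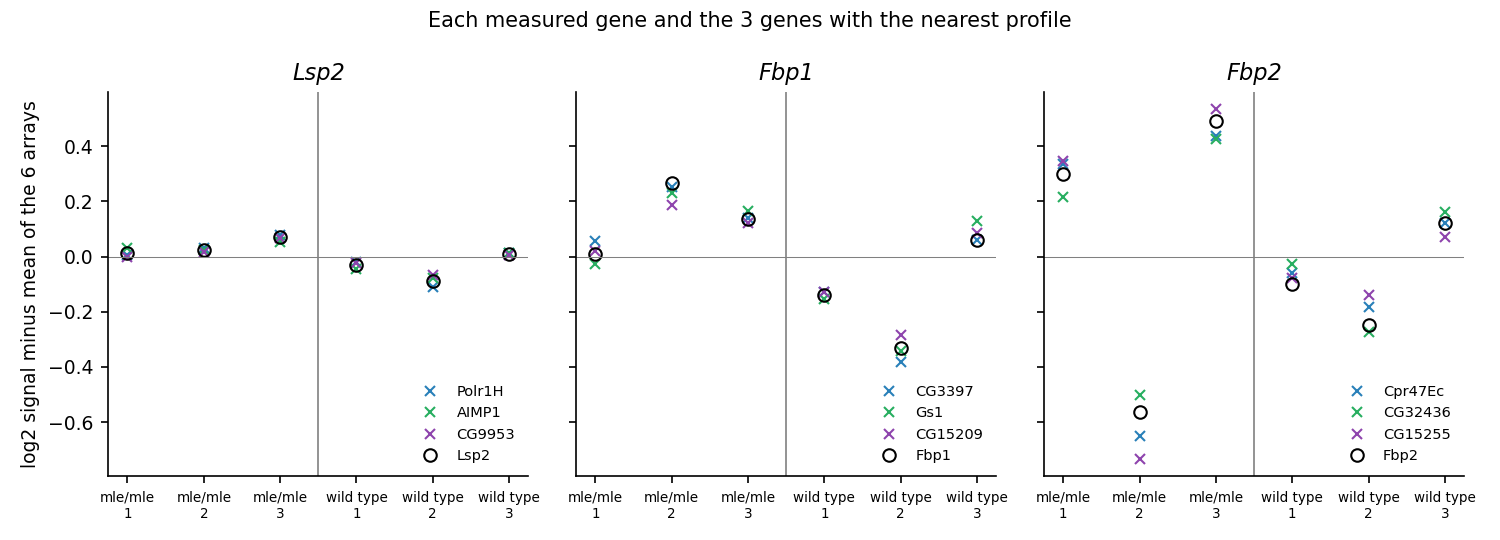
Centred log2 signal (signal minus the mean of the 6 arrays) for Lsp2, Fbp1 and Fbp2 (open circles) and the 3 genes with the nearest profile to each (crosses), with mle/mle arrays left of the vertical line and wild type arrays right of it. In mle/mle replicate 2, Fbp1 stands at 0.27 and Fbp2 at -0.56, and their nearest genes lie close to them because they were picked for nearness.

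Other fat body genes were read from a list of 24, of which 19 were measured. None was called, against 0.0647% of all genes, and 14 of the 19 had a positive log2 change, against 53.6% of all genes. The list median was 0.08, beside 0.01 for all genes, and leaving out mle/mle replicate 2 gave 0.13, leaving out mle/mle replicate 3 gave 0.02. At an unadjusted p under 0.05 there were 0 higher and 2 lower genes, while 4.64% of all genes lay below that p. Those 2 were Pepck1, a phosphoenolpyruvate carboxykinase of gluconeogenesis, and bmm, the brummer triglyceride lipase. Pepck1 averaged 11.77 ± 0.28 in mle/mle and 12.17 ± 0.01 in wild type (SD, n = 3 each; difference -0.40, adjusted p = 0.820 by limma). Next by p came Mtp, which loads lipid onto lipoproteins, with 8.69 ± 0.12 in mle/mle and 8.49 ± 0.10 in wild type (SD, n = 3 each; difference 0.20, adjusted p = 0.9997 by limma).

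The low value of Fbp2 in mle/mle replicate 2 was shared by part of this list. That array held the lowest of the 6 values for 10 of the 19 fat body genes, against 14.1% of all genes. It lay at least 0.5 below both other mle/mle arrays for 4 of them, against 3.37% of all genes. These 4, named after their values were seen, were the fatty acid synthase gene FASN1, the glycogen phosphorylase gene Glyp, the fatty acid desaturase gene Desat1 and the transferrin gene Tsf1. FASN1 had 10.17, 8.82 and 10.45 in mle/mle replicates 1, 2 and 3, against 9.31, 9.44 and 9.50 in wild type replicates 1, 2 and 3, the same order of mle/mle arrays as Fbp2. Other genes of the list did not share the low value. Mdy had its highest value of the 6 arrays in mle/mle replicate 2 (7.28), and Fer1HCH, Mtp and GNBP3 were not lowest of the mle/mle arrays there. The list as a whole had a centred median of -0.14 in mle/mle replicate 2, against 0.05 and 0.14 in mle/mle replicates 1 and 3 and -0.08 to 0.01 in wild type.

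Markers of another tissue were low in the same array. The 5 measured muscle genes of 8 listed had a centred median of -0.39 in mle/mle replicate 2, against 0.10 and 0.28 in mle/mle replicates 1 and 3 and -0.12 to 0.10 in wild type, with 4 of the 5 at their lowest of the 6 arrays. The 8 measured hemocyte genes of 9 listed stood at -0.09 there, against 0.20 in each of mle/mle replicates 1 and 3. That lay within their wild type range of -0.14 to -0.05, and 0 of the 8 had their lowest value in that array. Lists of glue, gut, yolk and cuticle genes, described below, stood at 0.02, 0.05, 0.12 and 0.15 in mle/mle replicate 2. The part of these tissues in the value of Fbp2 was not tested.

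The rest of the hemocyanin superfamily in this table is the prophenoloxidases, enzymes of melanin formation made by blood cells. PPO1 averaged 6.91 ± 0.15 in mle/mle and 6.70 ± 0.18 in wild type, and PPO3 8.66 ± 0.08 in mle/mle and 8.65 ± 0.07 in wild type (SD, n = 3 each). PPO2 had 2 probe sets, of which the brighter differed by 0.19 and the dimmer by 0.05. Of the 5 measured genes of the superfamily, Lsp2 and Fbp1 included, 0 were called, against 0.0647% of all genes. All 5 had positive changes, against 53.6% of all genes, with a median of 0.19. That median was 0.11 without replicate 2 of both groups or without wild type replicate 3, 0.10 without mle/mle replicate 1 and 0.08 in the PLIER table, and it turned to -0.03 within the 4 PLIER arrays that share a code in their column names. Of the alcohol dehydrogenase relatives, Adh and Adhr were not analysed here, which left Fbp2 alone.

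Regulator genes, mostly of ecdysone signalling and of fat body transcription, were 18 measured of 20 listed. They included Met, gce, Kr-h1 and slif, which lie outside those groups. The list showed no call, against 0.0647% of all genes. None had an unadjusted p under 0.05, against 4.64% of all genes. Changes were positive for 15 of the 18, against 53.6% of all genes. Their median change was 0.05, and it turned to -0.02 without replicate 2 of both groups. The GATA factor gene srp, which acts in fat body formation and on Fbp1, averaged 5.44 ± 0.26 in mle/mle and 5.12 ± 0.19 in wild type (SD, n = 3 each; difference 0.31, adjusted p = 0.9997 by limma). It had the smallest p of the list, although its probe set was dim, at place 11734 of 13966 by mean signal. The ecdysone receptor gene EcR came next, with 2 probe sets that differed by 0.11 and 0.0046, and then Hnf4, a nuclear receptor gene of lipid metabolism, which differed by 0.18. None of these passed the test. Mle/mle replicate 2 held the highest of the 6 values for 8 of the 18, against 22.5% of all genes. Eip78C, an ecdysone-induced nuclear receptor gene named after its values were seen, had 6.98, 7.70 and 7.09 in mle/mle replicates 1, 2 and 3, against 6.92, 6.42 and 7.47 in wild type replicates 1, 2 and 3. Like Fbp1 it was highest in mle/mle replicate 2 and lowest in wild type replicate 2, as were 3 of the 18 genes against 5.68% of all genes.

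Stage and tissue markers are given for the same arrays. The 7 measured glue protein genes of the salivary gland had negative changes throughout. Of all genes, 53.6% had a positive change. The glue genes had a median of -0.33 with 0 called, against 0.0647% of all genes, and a median of -0.52 without replicate 2 of both groups. Their centred median was -0.29, 0.02 and -0.23 in mle/mle replicates 1, 2 and 3, against 0.25, 0.10 and 0.22 in wild type replicates 1, 2 and 3. The glue genes were thus nearest between the groups in replicate 2, where Fbp1 differed most. Their part in the values of Fbp1 was not tested. The yolk protein genes Yp1, Yp2 and Yp3, made by the adult female fat body, differed by 0.15, -0.06 and -0.01. Gut enzyme genes, 7 measured, had a median of 0.48 with Amy-d called, against 0.0647% of all genes. They did not move together, with 5 positive and 2 negative changes that ran from -0.58 to 1.30. At an unadjusted p under 0.05 by limma, 4 were higher and 2 lower, against 4.64% of all genes in either direction. The 8 hemocyte genes had a median of 0.22 (0.37 without replicate 2 of both groups), 5 muscle genes 0.02 and 3 cuticle genes 0.03. In these last 3 lists 0 were called, against 0.0647% of all genes. Without that pair the muscle median was 0.14 and the cuticle median -0.03.

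**Figure D3:**
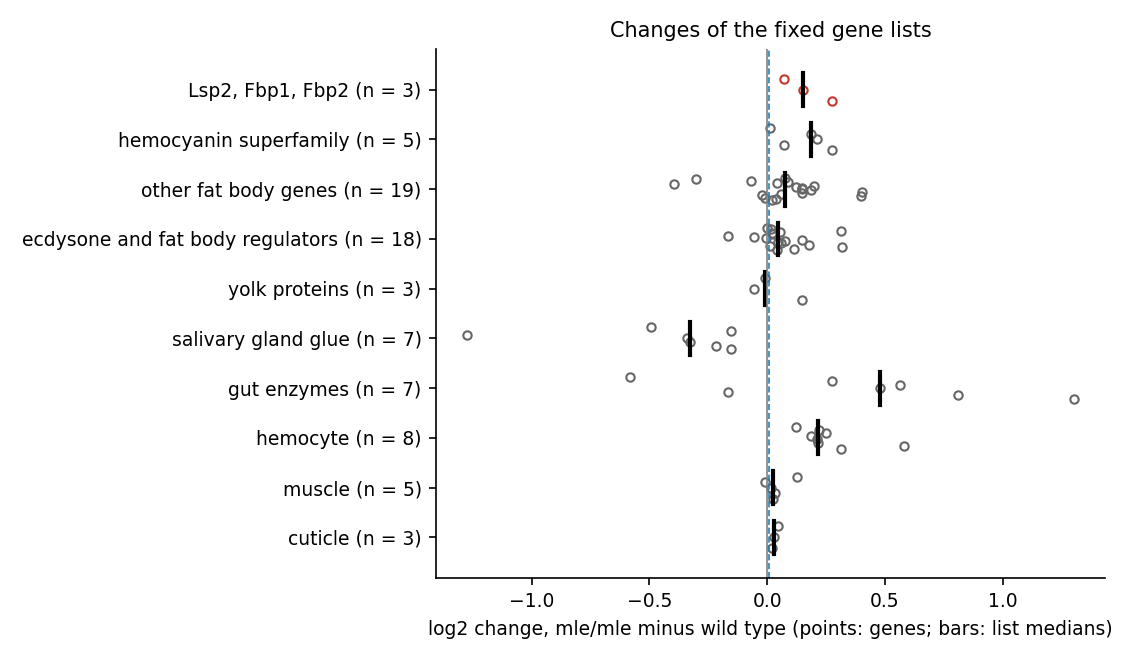
Log2 change (mle/mle minus wild type) of each measured gene by list, 1 probe set per gene, with a bar at the list median and a dashed line at the median of all genes (0.01). The 3 serum and fat body protein genes (red) lie between 0.07 and 0.27, within the range of the other fat body genes (-0.40 to 0.40).

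The second deposited table, made with PLIER, gives the group of an array in its column name, without a replicate number. In it Lsp2 averaged 13.26 ± 0.07 in mle/mle and 13.18 ± 0.10 in wild type, Fbp1 12.56 ± 0.11 in mle/mle and 12.28 ± 0.22 in wild type, and Fbp2 12.09 ± 0.56 in mle/mle and 11.96 ± 0.31 in wild type (SD, n = 3 each). The differences of 0.08, 0.28 and 0.14 were close to those of the RMA table, and none passed the test, which 0.0286% of all probe sets passed there. The separation of the Lsp2 groups in the RMA table did not hold in the PLIER table. Its lowest mle/mle value (13.19) lay below its highest wild type value (13.26). The column names carry 2 array codes, 1 shared by 4 arrays and 1 by 2, each with equal numbers of both groups. Within the code of 4 arrays the differences were 0.07, 0.37 and 0.06.

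**Figure D4:**
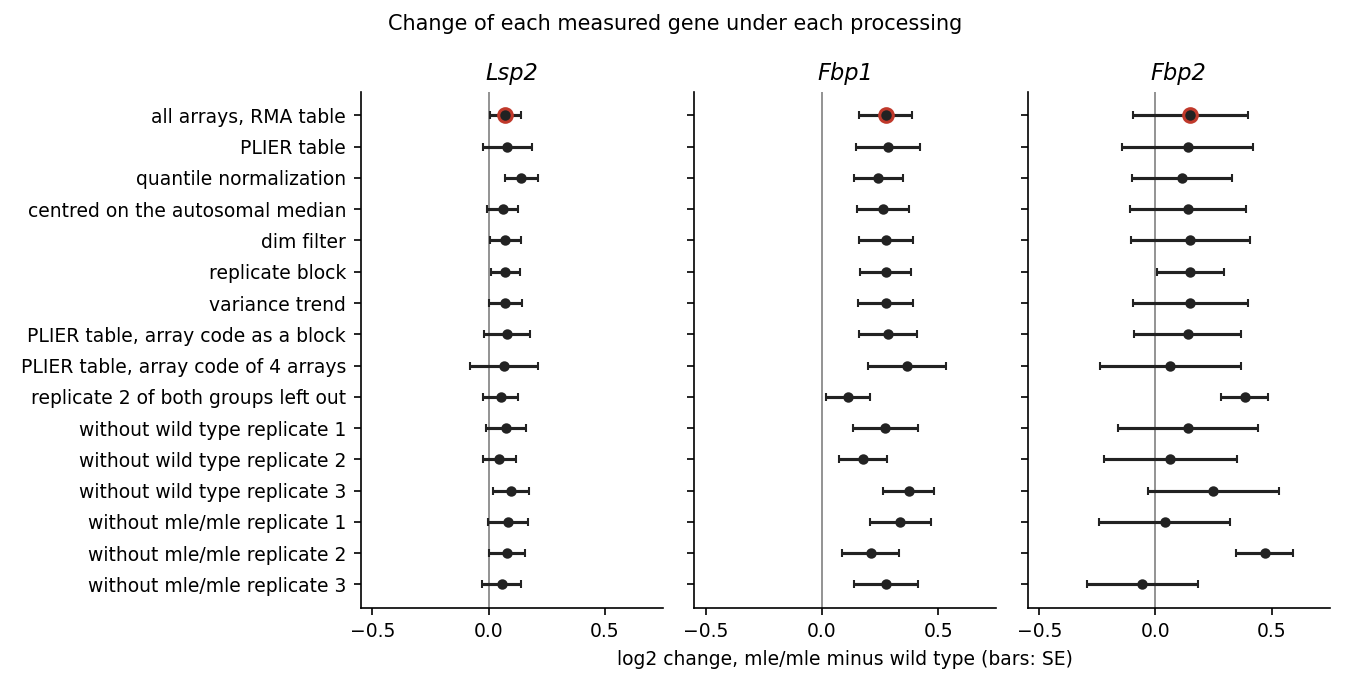
Log2 change (mle/mle minus wild type, with SE) of Lsp2, Fbp1 and Fbp2 in the main fit (red ring, all arrays of the RMA table) and in 15 other settings. Lsp2 and Fbp1 stay above 0 in all of them, whereas Fbp2 runs from -0.057 without mle/mle replicate 3 to 0.47 without mle/mle replicate 2.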

How the data were processed

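The authors deposited log2 signals per probe set. RMA is the tool named for them per the submitters' processing notes, and its version and settings are not given in the sources used here. A second deposited table served as an alternative and holds log2 PLIER signals, to which the file headers give the number 16, read here as the added offset since no value lies below its log2. Of 14010 probe sets 44 array controls were left out. The platform annotation gave 12443 probe sets 1 symbol, updated by Entrez ID (12394) or symbol (42) through the RefSeq table of Release 6 plus ISO1 MT. No sequences were used.

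The test was two-sided, by limma 3.58.1 (lmFit, eBayes) under R 4.3.3, and p-values were adjusted over all 13966 probe sets by the method of Benjamini and Hochberg. List values used the brightest probe set of a gene. Text names the members, called list genes, the 3 smallest p of the fat body and regulator lists and the 3 nearest profiles, unless stated. On simulated data with known changes the script returned the sizes put in. Those changes were larger than the differences of the 3 genes, and the noise was independent between arrays. The simulation therefore does not cover changes as small as theirs or deviations shared between arrays. Deviations from group means correlated at 0.17, 0.28 and 0.52 between same-numbered arrays over probe sets. The title numbers were therefore taken to pair the samples for the same-numbered differences and the replicate block. The main fit did not use this pairing, so its SEs, intervals and p-values are unpaired. Alternatives were the PLIER table, other scalings, a dim filter, a variance trend, the replicate number or array code as a block and leaving out arrays. The members and lists were chosen with earlier results of these data known. The number of arrays limits the precision. Python 3.11.15 with matplotlib 3.10.9 drew the figures.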

Additional observations from a re-analysis of the deposited data

How the results depend on the processing

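None of the 3 genes was called by limma in any of the 15 other settings. Lsp2 stayed higher in mle/mle in all 15 (0.05 to 0.14) and Fbp1 in all 15 (0.11 to 0.37). Fbp2 did in 14 and turned to -0.057 without mle/mle replicate 3, and its range when 1 array was left out was -0.057 to 0.47. Quantile normalization moved Lsp2 to 0.14. The replicate block left the differences as they were and called none of the 3 genes (adjusted p = 0.927 for Lsp2, 0.692 for Fbp1 and 0.942 for Fbp2 by limma). With it the SE of Fbp2 was 0.15, against 0.25 in the main fit. The SEs of Lsp2 (0.06) and Fbp1 (0.11) stayed close to the main fit (0.07 and 0.11). The count of 8 called probe sets was 4 in the PLIER table, 1 there with the array code as a block, 0 within the code of 4 arrays (399 at an unadjusted p under 0.05 by limma), 2 at an adjusted p under 0.01, 453 without replicate 2 of both groups, and 0 to 145 when 1 array was left out. The cause was not tested. The median of the fat body list stayed between 0.02 and 0.13. That of the hemocyanin superfamily fell to -0.03 within the code of 4 arrays, and that of the regulators to -0.02 without replicate 2 of both groups.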
